A study of Mus musculus with 12 samples.

Results

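The TAM family consists of 3 receptor tyrosine kinases, Tyro3, Axl and Mertk, and 2 secreted ligands, Gas6 and Pros1 (protein S). Each gene was followed through the probe set that carries its symbol alone in the platform annotation. All 5 members had exactly 1 such probe set, and they were 5 of the 19938 genes tested. The ligands carry a domain that is gamma-carboxylated with the help of vitamin K and that binds phosphatidylserine on the surface of dying cells. They thereby bridge the dying cell to a receptor on the phagocyte, which triggers engulfment and also dampens cytokine and Toll-like receptor signalling. In microglia, the resident macrophages of the brain, Mertk is known for the removal of apoptotic cells in the quiet state, whereas Axl is known to be induced by inflammation and by interferon. Gas6 binds all 3 receptors, and protein S binds Tyro3 and Mertk.

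Transcripts were measured on 12 Affymetrix Mouse Gene 1.0 ST arrays, 3 in each of 4 groups of primary microglia from C57BL/6J mice. The cells came from 7-day-old pups and were selected by CD11b, a surface protein that other myeloid cells also carry, with magnetic beads, and were grown for 3 days in serum-containing medium. For 6 h they then received oligomeric Aβ42 at 10 µM with ethanol vehicle at 0.001% (Aβ42 alone), the EP4 agonist AE1-329 at 100 nM with DMSO vehicle at 0.4% (AE1-329 alone), both agents, or both vehicles. No vehicle is listed for the cells with both agents, no DMSO for Aβ42 alone and no ethanol for AE1-329 alone. The listed vehicles thus differ between the groups, and their part in the changes was not tested. Aβ42 is the peptide that aggregates in Alzheimer's disease, and EP4 is a prostaglandin E2 receptor that raises cAMP. The replicates of each treatment were 3 litters, so the animals of a litter are not resolved. Arrays with the same replicate number are compared below as arrays of 1 litter, which is inferred from the design and the data and is not stated in the labels.

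Values are log2 levels of a probe set, and a difference of 1 unit is a 2-fold change. Array medians lay between 6.97 and 7.05, and the median standard deviation between replicates was 0.109 in vehicle and 0.063 to 0.066 in the other groups. Of 11 measured microglia markers 10 lay above the median gene (7.41), with Siglech (6.76) below it. The same held for 4 of 8 astrocyte, 2 of 7 oligodendrocyte lineage, 1 of 8 neuron, 2 of 8 endothelial and mural, and 4 of 7 border macrophage and monocyte markers. Fewer cells of a type and less RNA per cell cannot be told apart in such cultures.

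With Aβ42 alone 4 of the 5 TAM genes passed limma's test at an adjusted p of 0.05. Axl rose, and Mertk, Gas6 and Pros1 fell. Among all genes 25.6% passed, 10.7% as higher and 14.8% as lower, and the median change was -0.39 over the members and 0.02 over all genes. The groups did not overlap for 4 of the 5 members and for 35.0% of genes. When AE1-329 was added to Aβ42, Axl was the member that passed, and it fell (1 of 5). Among all genes 11.0% passed there, 5.99% as higher and 5.04% as lower. The groups did not overlap for 2 of the 5, Axl and Mertk, and for 32.0% of genes.

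**Figure D1:**
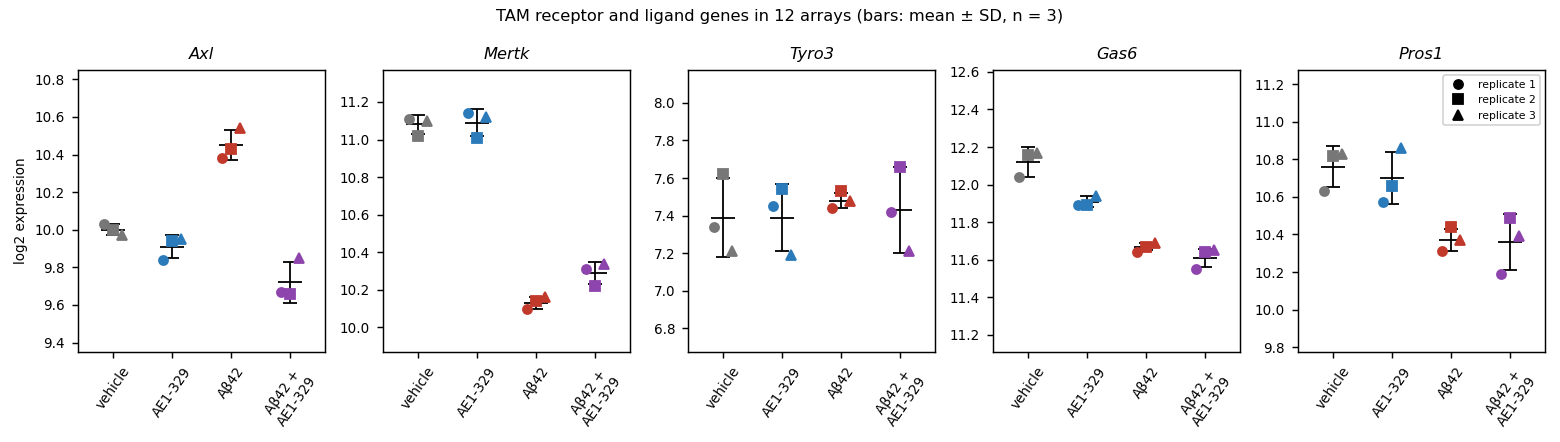
Log2 expression (vertical axes, 1.5 units in each panel) of the 5 TAM genes in the 4 treatment groups, with 1 symbol per array shaped by replicate number and bars for mean ± SD (n = 3). Axl is highest with Aβ42 alone (10.38 to 10.54), Mertk is lower in both groups with Aβ42 (10.10 to 10.34) than in both without (11.01 to 11.14), and Tyro3 overlaps across the groups.

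Mertk, a phagocytic receptor, had the largest change of the 5 with Aβ42 alone. Its level was 11.11, 11.02 and 11.10 in the vehicle arrays of replicates 1 to 3 and 10.10, 10.14 and 10.16 with Aβ42 alone. The lowest vehicle array thus lay well above the highest Aβ42 array. The fall was 0.95 ± 0.06 (log2 change with the standard error of the limma fit, 1.93-fold lower, adjusted p = 3.56e-08), and 214 of the 19938 genes, or 1.07%, changed by a lower value. Within the litters the differences were -1.01, -0.89 and -0.94.

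AE1-329 by itself left Mertk at 11.14, 11.01 and 11.12, values that interleave with vehicle. The change was 0.01 ± 0.06 (adjusted p = 0.954), with a 95% interval of -0.11 to 0.13. With both agents the arrays stood at 10.31, 10.22 and 10.34, each above the 3 arrays with Aβ42 alone. That difference of 0.16 ± 0.06 did not pass (adjusted p = 0.101, unadjusted p = 0.0142, higher in 3 of 3 litters), although it passed when only genes above the median level were tested (adjusted p = 0.0470). Against AE1-329 alone Mertk fell by 0.80 ± 0.06 with both agents (adjusted p = 1.97e-07), and against vehicle it fell by 0.79 ± 0.06 (adjusted p = 2.14e-07). The effect of AE1-329 did not differ between cells with and without Aβ42 in the interaction test (0.15 ± 0.08, adjusted p = 0.594, 95% interval -0.02 to 0.32). The order of the group means was thus AE1-329 alone (11.09) and vehicle (11.08), which did not differ beyond their spread, then both agents (10.29) and Aβ42 alone (10.13).

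Axl followed another course. Its level was 10.03, 10.00 and 9.97 in vehicle and 10.38, 10.43 and 10.54 with Aβ42 alone. All Aβ42 arrays lay above all vehicle arrays, and the rise was 0.46 ± 0.07 (1.37-fold, adjusted p = 0.000145). A higher change was found for 4.42% of genes. With AE1-329 alone the values were 9.84, 9.94 and 9.95, all just below the lowest vehicle array. The difference of -0.09 ± 0.07 did not pass (adjusted p = 0.540).

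With both agents Axl stood at 9.67, 9.66 and 9.85, below every array with Aβ42 alone and below every vehicle array. It fell by 0.73 ± 0.07 against Aβ42 alone (1.66-fold lower, adjusted p = 1.08e-05), by 0.71, 0.78 and 0.70 in the 3 litters, and 0.592% of genes changed by a lower value. Against vehicle it fell by 0.27 ± 0.07 (1.21-fold lower, adjusted p = 0.00803). The interaction passed: the effect of AE1-329 on Axl was lower by 0.64 ± 0.09 in cells with Aβ42 than in cells without (adjusted p = 0.00258), and 1.95% of all genes passed that test, 1.03% as higher and 0.918% as lower. Against AE1-329 alone the combined treatment gave -0.19 ± 0.07, which did not pass (adjusted p = 0.0610). It passed with the litter as a block (adjusted p = 0.0379). Axl was therefore ordered Aβ42 alone (10.45), vehicle (10.00), AE1-329 alone (9.91) and both agents (9.72), where vehicle and AE1-329 alone, and AE1-329 alone and both agents, are neighbours whose difference did not pass.

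Tyro3, the third receptor, did not pass in any of the 6 comparisons. Its arrays read 7.34, 7.62 and 7.21 in vehicle, 7.45, 7.54 and 7.19 with AE1-329 alone, 7.44, 7.53 and 7.48 with Aβ42 alone, and 7.42, 7.66 and 7.21 with both. These values lie close to the array medians, and the signal over background of the probe set is unknown. The groups overlapped in all 5 pairwise comparisons, and the spread followed the replicate number more than the treatment. Replicate 2 was highest in 4 of 4 groups and replicate 3 lowest in 3 of 4. The change with Aβ42 was 0.09 ± 0.12 (adjusted p = 0.671), with a 95% interval of -0.18 to 0.36.

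**Figure D2:**
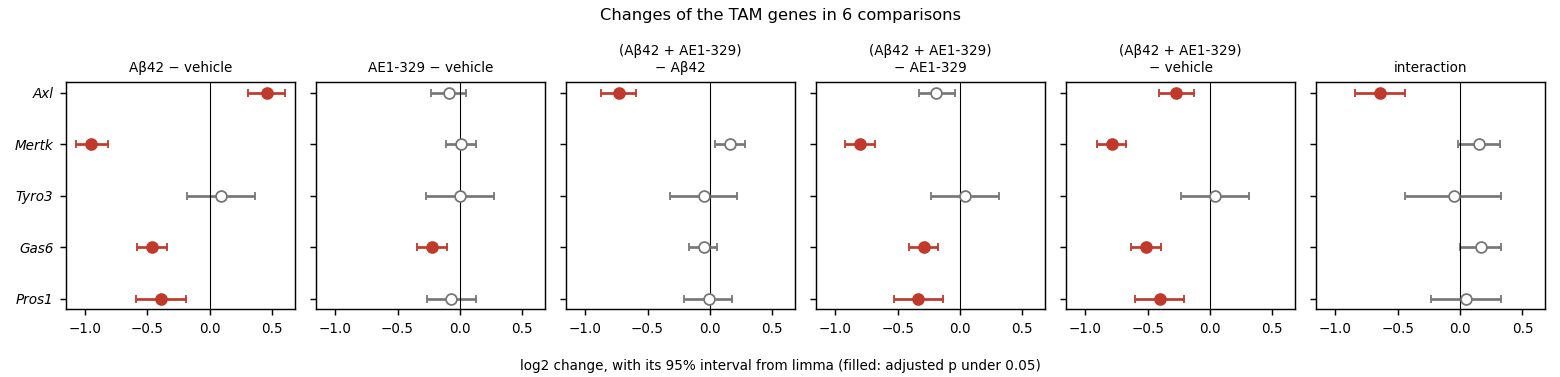
Log2 change (horizontal axis) of each TAM gene in the 5 pairwise comparisons and the interaction, with its 95% interval from limma (points filled where adjusted p was under 0.05). Mertk, Gas6 and Pros1 lie to the left of 0 in the 3 panels that compare cells with and without Aβ42, where Axl lies at 0.46 for Aβ42 alone against vehicle, -0.19 for both agents against AE1-329 alone and -0.27 for both agents against vehicle.

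Both ligand genes were lower wherever Aβ42 was present. Gas6, the ligand shared by all 3 receptors, read 12.04, 12.16 and 12.17 in vehicle and 11.64, 11.67 and 11.69 with Aβ42 alone. It fell by 0.46 ± 0.05 (1.37-fold lower, adjusted p = 2.42e-05). With AE1-329 alone the arrays read 11.89, 11.89 and 11.94, all between the vehicle and the Aβ42 arrays. That fall of 0.22 ± 0.05 passed (adjusted p = 0.0193) and made Gas6 the member of the 5 that changed with AE1-329 alone, where 10.2% of all genes passed, 4.71% as higher and 5.45% as lower. The groups did not overlap for Gas6 and Axl, and for 22.9% of genes. The call depended on which arrays were kept. It ended without replicate 1 (adjusted p = 0.0702) or replicate 2 (0.0750) of AE1-329 alone, without vehicle replicate 2 (0.0566) or 3 (0.0575), and with only those 6 arrays in the fit (0.122).

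With both agents Gas6 stood at 11.55, 11.64 and 11.65, which overlaps Aβ42 alone (-0.05 ± 0.05, adjusted p = 0.692). Against vehicle the combined treatment lowered it by 0.51 ± 0.05 (1.43-fold lower, adjusted p = 9.94e-06). Against AE1-329 alone it fell by 0.29 ± 0.05 (adjusted p = 0.00127). The interaction of 0.17 ± 0.08 did not pass (adjusted p = 0.463). Replicate 3 had the highest Gas6 value in 4 of 4 groups.

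Pros1, which encodes protein S, an anticoagulant as well as a TAM ligand, read 10.63, 10.82 and 10.83 in vehicle and 10.31, 10.44 and 10.37 with Aβ42 alone. It fell by 0.39 ± 0.09 (1.31-fold lower, adjusted p = 0.00569). With AE1-329 alone it stood at 10.57, 10.66 and 10.86, overlapping vehicle (-0.07 ± 0.09, adjusted p = 0.783). With both agents it stood at 10.19, 10.49 and 10.39, overlapping Aβ42 alone (-0.01 ± 0.09, adjusted p = 0.967). Against vehicle the combined treatment lowered Pros1 by 0.40 ± 0.09 (adjusted p = 0.00542). Against AE1-329 alone it fell by 0.34 ± 0.09 (adjusted p = 0.0162), a call that ended when replicate 1 of the cells with both agents (adjusted p = 0.0857) or replicate 3 of AE1-329 alone (0.0815) was left out. Replicate 1 was the lowest Pros1 array in 4 of 4 groups.

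Over the whole family, 3 of 5 members passed between the combined treatment and AE1-329 alone, all lower. Among all genes 22.0% passed, 9.77% as higher and 12.2% as lower, and the groups did not overlap for these 3 members and for 40.1% of genes. Between the combined treatment and vehicle 4 of 5 passed, again all lower. Among all genes 21.2% passed, 9.27% as higher and 11.9% as lower, and the groups did not overlap for these 4 members and for 30.3% of genes. These comparisons share arrays with those described above, so their values are repeated measurements of the same groups.

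The difference between the Axl and Mertk probe sets was also taken within each array. The pair was chosen with their opposite changes with Aβ42 alone known. These values restate the changes of the 2 genes as 1 quantity and are a description. Only its change between groups is interpretable, because 2 probe sets have different sensitivities. The difference was -1.08, -1.03 and -1.14 in vehicle, -1.31, -1.07 and -1.17 with AE1-329 alone, 0.28, 0.29 and 0.38 with Aβ42 alone, and -0.64, -0.57 and -0.49 with both. Aβ42 shifted it towards Axl by 1.40, a 2.64-fold change in the ratio, and the groups did not overlap. Adding AE1-329 to Aβ42 moved it back by -0.89, and Aβ42 on top of AE1-329 shifted it by 0.61, each without overlap. In the shift of 0.61 neither gene rose, with Axl at -0.19 ± 0.07, which did not pass in limma, and Mertk at -0.80 ± 0.06. AE1-329 alone gave -0.10, with overlapping groups. The two-sided exact permutation test of 3 against 3 arrays cannot give a p below 0.10, the value it gave for each of the 3 shifts without overlap, and it gave 0.30 for AE1-329 alone (0.13 and 0.30 adjusted over the 4 comparisons). It adds nothing to the tests of the single genes.

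**Figure D3:**
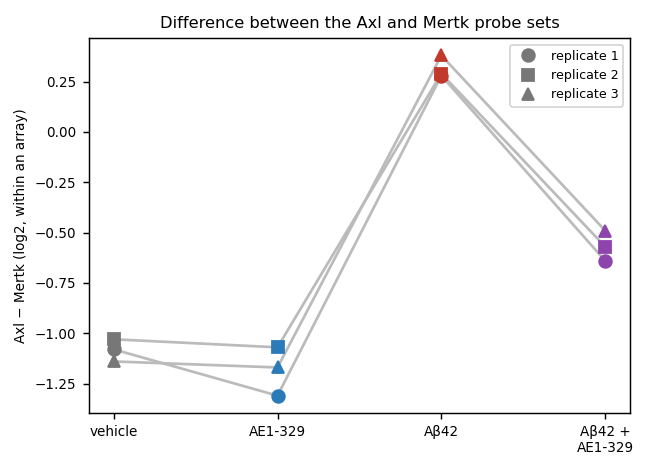
Within-array difference between the Axl and Mertk log2 values (vertical axis) in the 4 groups, with 1 symbol per array and grey lines joining arrays of the same replicate number. The 3 arrays with Aβ42 alone sit between 0.28 and 0.38, those with both agents between -0.64 and -0.49, and the 6 arrays without Aβ42 between -1.31 and -1.03.

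The promoters of the 3 members with the largest changes with Aβ42 alone are shown. In that comparison Axl and Mertk moved in opposite directions and Gas6 with Mertk, whereas both agents against vehicle lowered all 3. Each run holds the 250 bases before the annotated start in RefSeq (GRCm38.p6), 5′ to 3′ on the strand of the gene. The windows are chr7:25788734-25788983 (minus strand) for Axl, chr2:128698665-128698914 (plus strand) for Mertk and chr8:13494536-13494785 (minus strand) for Gas6. Capitals mark matches to any of the motifs searched.
Axl: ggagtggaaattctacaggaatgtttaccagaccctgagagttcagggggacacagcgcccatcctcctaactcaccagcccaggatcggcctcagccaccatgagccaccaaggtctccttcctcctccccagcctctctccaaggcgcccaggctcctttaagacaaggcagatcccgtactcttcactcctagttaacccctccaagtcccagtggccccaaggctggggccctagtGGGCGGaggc
Mertk: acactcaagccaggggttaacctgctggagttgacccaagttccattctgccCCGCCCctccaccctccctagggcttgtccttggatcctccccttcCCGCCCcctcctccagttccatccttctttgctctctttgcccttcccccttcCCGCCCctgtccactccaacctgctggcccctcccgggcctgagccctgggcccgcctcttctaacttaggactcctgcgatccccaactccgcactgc
Gas6: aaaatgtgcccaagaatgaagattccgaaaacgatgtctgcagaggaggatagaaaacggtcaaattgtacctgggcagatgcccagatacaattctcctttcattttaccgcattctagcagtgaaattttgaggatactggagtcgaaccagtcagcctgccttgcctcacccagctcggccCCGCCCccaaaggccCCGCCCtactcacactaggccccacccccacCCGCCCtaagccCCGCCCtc
The motifs, searched on both strands, were the interferon-stimulated response element (ISRE), the STAT site GAS (TTCNNNGAA), the NF-kB consensus, the cAMP response element (TGACGTCA), the AP-1 site (TGANTCA), the GC box (GGGCGG) and the nuclear receptor half-site (AGGTCA). All 3 windows held the GC box, with 1 match in Axl, 3 in Mertk and 4 in Gas6, and no other motif of the 7. Of the 32851 RefSeq promoter windows of this length 32.7% held a GC box, 2.98% the interferon element, 7.02% the STAT site, 7.25% the NF-kB consensus, 1.55% the cAMP element, 6.75% the AP-1 site and 14.0% the half-site. The G and C content was 60.0% in Axl, 63.6% in Mertk and 54.8% in Gas6, against a median of 52.4%. The windows of Tyro3 and Pros1 also held GC boxes (3 and 5), Tyro3 in addition 1 NF-kB match and Pros1 1 STAT match. These are matches of letters in a short window and not binding sites.

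Axl is counted among interferon-induced genes, so its changes are set beside a list of type I interferon-stimulated genes. With Aβ42 alone 21 of the 23 measured members rose (median 1.52), against 10.7% of all genes. Those that rose included the RNA sensor Ifih1 (1.52 ± 0.11), the antiviral GTPase Mx2 (2.53 ± 0.21), Parp14 (1.76 ± 0.13) and Rtp4 (1.33 ± 0.13). With AE1-329 added to Aβ42, 5.04% of all genes fell, and of the list 13 of 23 fell and 10 did not pass (median -0.70). The number was 19 with the litter as a block and between 7 and 16 without 1 array. The lower counts came without replicate 1 (8) or 2 (7) of the combined treatment or replicate 2 (8) or 3 (7) of Aβ42 alone. Mx2 fell by 1.72 ± 0.21, Ifih1 by 0.87 ± 0.11, Ddx58, an RNA sensor, by 0.73 ± 0.13 and Oas1a by 0.69 ± 0.12. The list and Axl parted in the other comparisons of the combined treatment. Against vehicle 12 of 23 were higher and 0 lower (median 0.66, 9.27% of all genes higher), whereas Axl fell by 0.27. Against AE1-329 alone 10 were higher and 0 lower (median 0.54, 9.77% of all genes higher), and Axl gave -0.19, which did not pass. In the interaction test 0.918% of all genes passed as lower. Of the list 4 of 23 passed, all lower (17 with the litter block, and 2 to 8 without 1 array, with 2 when replicate 1 or 2 of the combined treatment or replicate 2 or 3 of Aβ42 alone was left out and 8 without vehicle replicate 3).

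In the array means of this list replicate 3 stood highest in each group, at 8.98 in vehicle, where the others had 8.34 and 8.64, and at 9.44 with AE1-329 alone, where the others had 8.36 and 8.63. In Axl the same arrays read 9.97 and 9.95. Replicate 3 was the highest Axl array in 3 of 4 groups, as in the list, and the lowest in vehicle. Without replicate 3 of AE1-329 alone or any other 1 array, the Axl interaction still passed, with values from -0.70 to -0.60 over all 18 alternatives.

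The remaining lists cover the route from a dying cell to its engulfment. Their counts are to be read beside the share of all genes that passed, 25.6% with Aβ42 alone and 11.0% with AE1-329 added. Of 17 other phosphatidylserine receptors and bridging molecules 7 fell with Aβ42 alone, 0 rose and 10 did not pass (median -0.06, all genes 0.02). Havcr2 (Tim-3, a receptor of phosphatidylserine and of immune inhibition) fell by 1.38 ± 0.09, the integrin subunits Itgb5 by 0.71 ± 0.08 and Itgb3 by 0.36 ± 0.06, and the inhibitory receptor Cd300a by 0.65 ± 0.10. The bridging protein gene Mfge8, which serves integrins as Gas6 serves TAM receptors, gave -0.17 ± 0.09 (adjusted p = 0.206). With AE1-329 added, Havcr2 rose by 0.68 ± 0.09 and the other 16 did not pass.

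Of 17 engulfment machinery genes 5 rose and 5 fell with Aβ42 alone, where 25.6% of all genes passed. Src, a kinase, rose by 2.39 ± 0.08, the Rac activator Vav1 by 0.78 ± 0.06 and the GTPase Rac2 by 0.84 ± 0.06, and the Rac and Cdc42 exchange factor Arhgef6 fell by 0.94 ± 0.09. With AE1-329 added 3 rose and 4 fell, where 11.0% of all genes passed. The cholesterol exporter Abca1 rose by 0.77 ± 0.05, Elmo1, part of the Rac activator downstream of engulfment receptors, fell by 0.62 ± 0.05, Vav1 fell by 0.34 ± 0.06 and Arhgef6 fell by 0.40 ± 0.09.

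TAM receptors are shed from the cell surface by metalloproteases. Of 5 genes of shedding 3 rose and 1 fell with Aβ42 alone (median 0.62), where 25.6% of all genes passed. Adam17, the main sheddase of Mertk, rose by 0.87 ± 0.05 and its regulators Rhbdf2 and Rhbdf1 by 1.47 ± 0.08 and 0.62 ± 0.07, whereas Adam10 fell by 0.34 ± 0.05. With AE1-329 added, where 11.0% of all genes passed, Adam17 fell by 0.32 ± 0.05 and Rhbdf1 by 0.48 ± 0.07, and the other 3 did not pass. Of 7 genes of the vitamin K cycle and of ligand maturation 1 rose with Aβ42 alone, the protease Furin (0.30 ± 0.06), and 0 passed with AE1-329 added. The carboxylase gene Ggcx gave -0.17 ± 0.07 with Aβ42 (adjusted p = 0.0908). None of these 7 passed in limma when AE1-329 was added, and that holds under the litter block for 6 of them.

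Of 14 transcription factors linked to Mertk or Axl 4 rose and 5 fell with Aβ42 alone, where 25.6% of all genes passed. The liver X receptor Nr1h3 rose by 1.55 ± 0.13 and the AP-1 subunit Fosl1 by 0.68 ± 0.12, while the retinoid X receptor Rxra fell by 0.80 ± 0.07 and Pparg by 0.80 ± 0.15. With AE1-329 added, where 11.0% of all genes passed, 1 passed, Maf, which fell by 0.25 ± 0.06. Among 15 signalling partners and targets of the receptors 7 rose and 3 fell with Aβ42 alone. They were led by Socs3 (3.48 ± 0.14), a suppressor of cytokine signalling, the phosphatase Ptpn11 (0.42 ± 0.05), the phosphoinositide kinase subunit Pik3r1 (0.50 ± 0.06) and the ubiquitin ligase Cblb, which fell by 0.47 ± 0.07. With AE1-329 added 2 rose and 3 fell, with the interferon receptor Ifnar1 at 0.23 ± 0.05 and Ube2l6 at -0.51 ± 0.10. Socs1, induced by TAM signalling, rose by 0.72 ± 0.11 with Aβ42 and fell by 0.42 ± 0.11 with AE1-329 added. Of 11 other proposed ligands and Gla proteins 1 fell with Aβ42, Prrg1 (-0.48 ± 0.14), and Lgals3 (galectin-3, a proposed Mertk ligand) gave -0.02 ± 0.06 (adjusted p = 0.859).

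**Figure D4:**
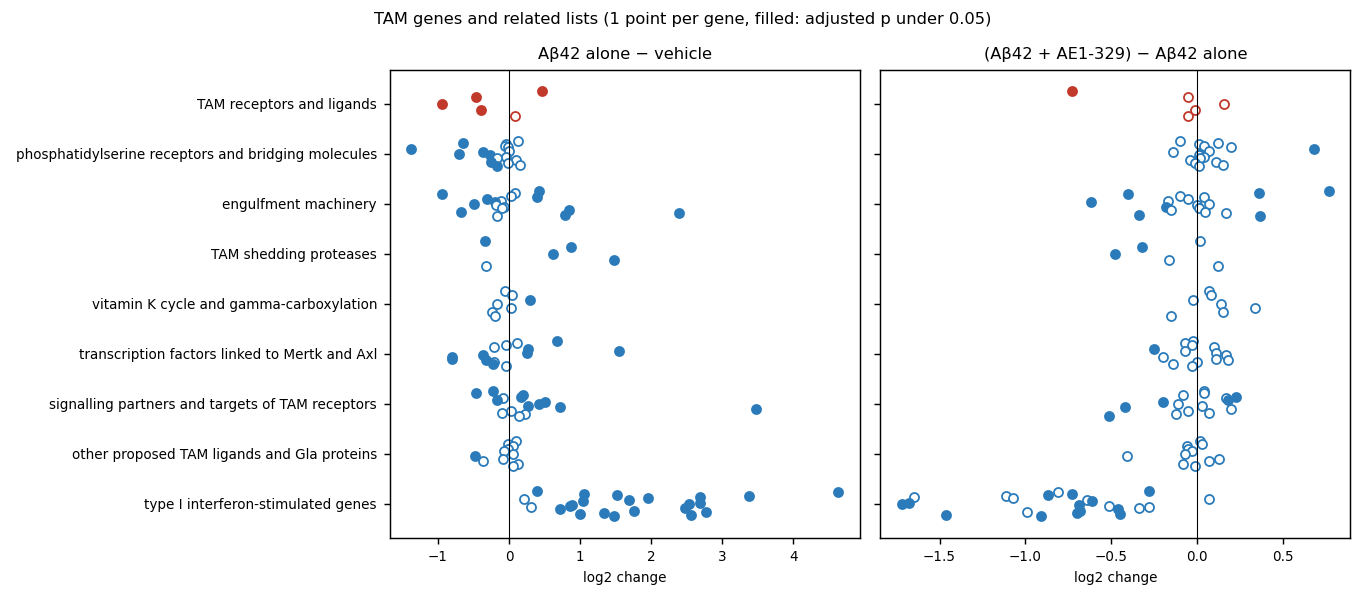
Log2 change (horizontal axes, with different ranges) with Aβ42 alone against vehicle on the left and with AE1-329 added to Aβ42 on the right, with 1 point per gene for the 5 TAM genes and 8 related lists (filled where adjusted p was under 0.05). All interferon-stimulated genes lie to the right of 0 on the left panel, and 13 of 23 are filled and below 0 on the right panel, where Axl, at -0.73, is the filled TAM gene.

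Markers of other cells that express TAM genes were followed with the same test. Among all genes 25.6% passed with Aβ42 alone and 11.0% with AE1-329 added to Aβ42. With Aβ42 alone 1 of 7 border macrophage and monocyte markers rose (Ms4a7, 0.73 ± 0.08), 1 of 8 astrocyte markers rose (Slc1a3, 0.52 ± 0.11), 1 of 7 oligodendrocyte lineage markers fell (Mbp, -0.27 ± 0.06) and 1 of 8 endothelial and mural markers fell (Kdr, -0.50 ± 0.10). The array means of the border macrophage list ran from 7.94 to 8.00 in vehicle and from 8.02 to 8.07 with Aβ42 alone. Those of the astrocyte list ran from 6.91 to 7.17 and from 7.07 to 7.24. Among the microglia markers 2 of 11 rose with Aβ42 alone, Aif1 (0.46 ± 0.07) and Tmem119 (0.33 ± 0.09). The 3 that fell were P2ry12, a purinergic receptor of resting microglia (-1.43 ± 0.11), Cx3cr1 (-0.30 ± 0.10) and Itgam (-0.18 ± 0.05), and 6 did not pass. The array means of the microglia list ran from 10.35 to 10.38 in vehicle, from 10.19 to 10.28 with Aβ42 alone and from 10.02 to 10.11 with both agents. With AE1-329 added to Aβ42, where Axl fell, 1 of 11 microglia markers rose and 3 fell. Of 8 endothelial and mural markers Pecam1 rose (0.90 ± 0.08) and Flt1 fell (-0.47 ± 0.06). Slc1a3 fell among the 8 astrocyte markers (-0.42 ± 0.11) after rising with Aβ42 alone. The other 7 passed in neither comparison, and the list median with AE1-329 added was 0.04. Cspg4 fell among the 7 oligodendrocyte lineage markers (-0.32 ± 0.09), Pf4 rose among the 7 border macrophage and monocyte markers (0.36 ± 0.08), and 0 of 8 neuron markers passed in limma. The array means with both agents ran from 7.12 to 7.23 for the astrocyte list, from 6.90 to 7.05 for the endothelial and mural list and from 7.98 to 8.12 for the border macrophage list. The part of these markers in the changes of the TAM genes was not tested.

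The genes whose profile over the 12 arrays was closest to each member were sought by the root mean square difference after centring each gene on its own mean. Predicted genes, unnamed clones, olfactory and vomeronasal receptors and microRNA genes were left out by their names. The genes were chosen by their profile on these same arrays, so changes like those of the member follow from the choice. For Axl they were Tmem178 (0.0914), Rcsd1 (0.0921) and Parp12 (0.0989), where Axl itself varied by 0.275 about its mean. Rcsd1 changed by 0.40 with Aβ42 alone and by -0.72 with AE1-329 added, values close to those of Axl. For Mertk they were Osbpl11 (0.0485), Smarca2 (0.0580) and Tnfrsf21 (0.0600), against 0.441 for Mertk itself. Tnfrsf21 changed by -0.94 with Aβ42 alone and by 0.11 with AE1-329 added. For Gas6 they were Tm7sf3 (0.0454), Heatr5a (0.0490) and Lrp6 (0.0498), against 0.208. For Pros1 they were Oxct1 (0.0503), Slc39a8 (0.0649) and Clspn (0.0672), against 0.209.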

How the data were processed

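Total RNA was hybridised to 12 arrays, and groups and replicate numbers were taken from the labels. The deposited table holds a log2 value for every probe set on each array (2.79 to 13.95). For its making the submitters' processing notes list RMA and Partek 6.5 and give neither a role. Build and filters: not given in the sources used here. Of 35556 probe sets 21789 carried 1 gene symbol, 1621 several and 12146 none, and the brightest of a gene's probe sets was kept, giving 19938 genes, dim ones included. Symbols of 21698 probe sets were matched through gene IDs to RefSeq (GRCm38.p6), whose promoter table held all 5 members.

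The test was limma 3.58.1 (R 4.3.3) with 1 mean per group over the 12 arrays, using lmFit, then eBayes. It had 8 residual and 4.54 prior degrees of freedom and was tested on simulated data. P-values are two-sided, adjusted by Benjamini-Hochberg over all genes within a comparison. Alternatives are given in the closing section. Named genes were the 5 members, in each list up to 4 with the smallest p in the Aβ42 and the added AE1-329 comparison and any whose role is described, and the 3 most similar genes per member that passed. The members, lists and tests were chosen with earlier results of these data known.

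The design text makes 3 litters the replicates of each treatment, and that a number marks the same litter in every group is an inference from it. Once group means were removed, 18 same-numbered pairs had an average correlation of 0.326 (0.00435 to 0.538, 17 above 0.1), across genes, which are not independent. The replicate block adds the litter to the fit.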

Additional observations from a re-analysis of the deposited data

Results flagged for a closer look

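The effect of AE1-329 on Axl differed between cells with and without Aβ42 in limma's interaction test. The difference of the effects was -0.64 ± 0.09 (adjusted p = 0.00258), and it was -0.52, -0.72 and -0.68 in the 3 litters. AE1-329 changed Axl by -0.09 ± 0.07 without Aβ42 and by -0.73 ± 0.07 with it. No other member passed that test.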

How the results depend on the processing

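Alternatives were a replicate block for the litter, only genes above the median level, averaged probe sets per gene, quantile normalization again, a mean-variance trend with robust prior, only the groups of the comparison, all probe sets tested, and leaving out each array in turn. Of 565 member changes so recomputed, 552 kept their side of the threshold, 7 lost a call, 6 gained one and 0 calls reversed. The number of TAM genes that passed with AE1-329 alone was 1, but 0 with only the groups of the comparison, and 0 to 1 without 1 array. With AE1-329 added to Aβ42 it was 1, but 2 among genes above the median level, where fewer genes are tested. In the other 4 comparisons the counts stayed within 1.5 times. With the replicate block Axl passed between the combined treatment and AE1-329 alone (adjusted p = 0.0379), and the pairing changed no other call of a member. Axl also passed there among genes above the median level (0.0335), with quantile normalization again (0.0350), with the trend and robust prior (0.0496) and without replicate 3 of the combined treatment (0.0193). Over all genes the interaction called 389 genes, 677 with the replicate block and 246, 254 and 254 without replicates 2 or 3 of Aβ42 alone or replicate 2 of AE1-329 alone. AE1-329 alone called 2026, and 970 with only its 2 groups. The interferon counts were recomputed with the block and without each array, alternatives chosen after seeing the data. Signal over background is unknown for all 5 members, and 3 arrays per group limit the precision.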
